A study of Drosophila melanogaster with 58 samples.

Results

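The genes described here make, store, take up and sense the monoamines of the fly brain: ple, Ddc, Tdc2 and Tbh for synthesis, Vmat, DAT and SerT for transport, and Dop1R1, Dop2R and Oamb as receptors. They were chosen by name, by current or older gene symbol, and where several probe sets were annotated to that symbol alone, the brightest on average over the 58 arrays stood for the gene. Of the 10 genes named, 9 had such a probe set, out of 11982 genes and 18769 probe sets in all. Oamb, a receptor for octopamine, had none under this rule and is not analysed here.

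Dopamine is made from tyrosine by tyrosine hydroxylase and dopa decarboxylase, and the same decarboxylase makes serotonin from its own precursor. Tyramine and octopamine, which do in insects much of what adrenaline and noradrenaline do in mammals, are made from tyrosine by a separate decarboxylase and a hydroxylase. All of these amines are loaded into vesicles by one transporter, dopamine and serotonin are cleared from the synapse by transporters of their own, and G protein-coupled receptors on the target cells, and in part on the releasing cells, read the signal.

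The study measured RNA from heads of Oregon R flies, a common wild-type laboratory strain of Drosophila melanogaster, on the Affymetrix Drosophila Genome 2.0 array, a chip of short oligonucleotide probes. The series title names drug repurposing for psychiatric and neurological use as the purpose. Adult unmated males, 3 to 4 days old at the start and kept 30 to a vial at 25 degrees C, ate their food for 7 days and were 10 days old at collection. All groups share this strain, sex, age and time, and differ in the food.

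The 58 arrays fell into 15 groups, of 4 arrays each except 2 for Moxifloxacin Hydrochloride. One group had normal food, and one had food with Pentylenetetrazole (PTZ), a convulsant that blocks receptors of the inhibitory transmitter GABA. Single compounds without PTZ were Levetiracetam (an antiepileptic drug), Glucosamine Hydrochloride (an amino sugar), Mannitol (a sugar alcohol), Olmesartan Medoxonil (a blocker of angiotensin receptors), Moxifloxacin Hydrochloride (an antibiotic), Gemfibrozil (a lipid-lowering fibrate) and Quinapril Hydrochloride (an inhibitor of angiotensin-converting enzyme). The 6 combinations held PTZ with Levetiracetam, Glucosamine Hydrochloride, Mannitol, Olmesartan Medoxonil, Quinapril Hydrochloride or Oxaprozin (a non-steroidal anti-inflammatory drug). Below, a compound is called by the first word of its name. The sources used here state no doses. Nothing in the labels says whether the 4 arrays of a food hold separate batches of flies, so a p-value sets a difference against the spread between arrays alone, which may be technical.

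Levels are log2 values as the authors deposited them, means are given ± SD over arrays and differences ± SE. A gene is said to rise, fall or differ where limma, fitted over all probe sets and adjusted by Benjamini-Hochberg within the comparison, gave an adjusted p under 0.05. In whole-head RNA, fewer cells of a type and less RNA per cell cannot be told apart. Precision is limited by how many arrays there are, and levels are compared within a gene, not between genes, since the probes of different genes differ in brightness.

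Several measures of tissue and array moved with the food, and their part in the results below was not tested. The mean level of 11 pan-neuronal markers (of 13 listed) was 8.85 ± 0.015 in normal food and 8.37 ± 0.021 in PTZ, and ran over the 15 groups from 7.87 in PTZ+Mannitol to 9.08 in Glucosamine. The mean of 12 male reproductive tract markers (of 12 listed), genes not characteristic of heads, was 7.48 in normal food, 3.71 in PTZ and 2.81 in PTZ+Levetiracetam. The mean of 5 photoreceptor markers (of 10 listed) stayed high, between 11.61 in Levetiracetam and 12.31 in PTZ+Levetiracetam. The 5′ minus 3′ signal of the control transcripts, a measure of how far labelled RNA reaches from the 3′ end, was -6.42 ± 0.22 in normal food, -5.67 in PTZ and -4.14 in PTZ+Levetiracetam. The bioB minus bioC control level split the foods. Its mean lay between -1.09 and -0.83 in PTZ+Glucosamine, Mannitol, Gemfibrozil, PTZ+Mannitol and Moxifloxacin, against -4.07 in normal food and -3.95 in PTZ. Olmesartan and Quinapril had arrays on both sides. Setting a food of the high set against normal food or PTZ thus also compares bioB levels. As a block it took away 2 of 171 calls, but only Olmesartan and Quinapril, mixed in level, inform that block.

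The monoamine genes differed widely between the foods. All 9 differed over the 15 groups in limma's F test, which 77.8% of all probe sets did as well. Vmat had the widest range of group means, 1.75, or 3.36-fold from its highest group (Levetiracetam) to its lowest (PTZ+Oxaprozin). Dop2R followed with 1.42, Dop1R1 with 1.37, ple with 1.36, DAT with 1.34, Tbh with 1.12, SerT with 0.81, Ddc with 0.78 and Tdc2 with 0.68, against a median range of 0.59 over all probe sets. Relative to the spread between arrays of a group, the SD of the 15 group means was 8.09 times as large for Vmat, 5.56 times for Ddc, 5.25 times for Dop2R and 0.94 times for Tdc2, with a median of 1.38 over all probe sets.

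**Figure D1:**
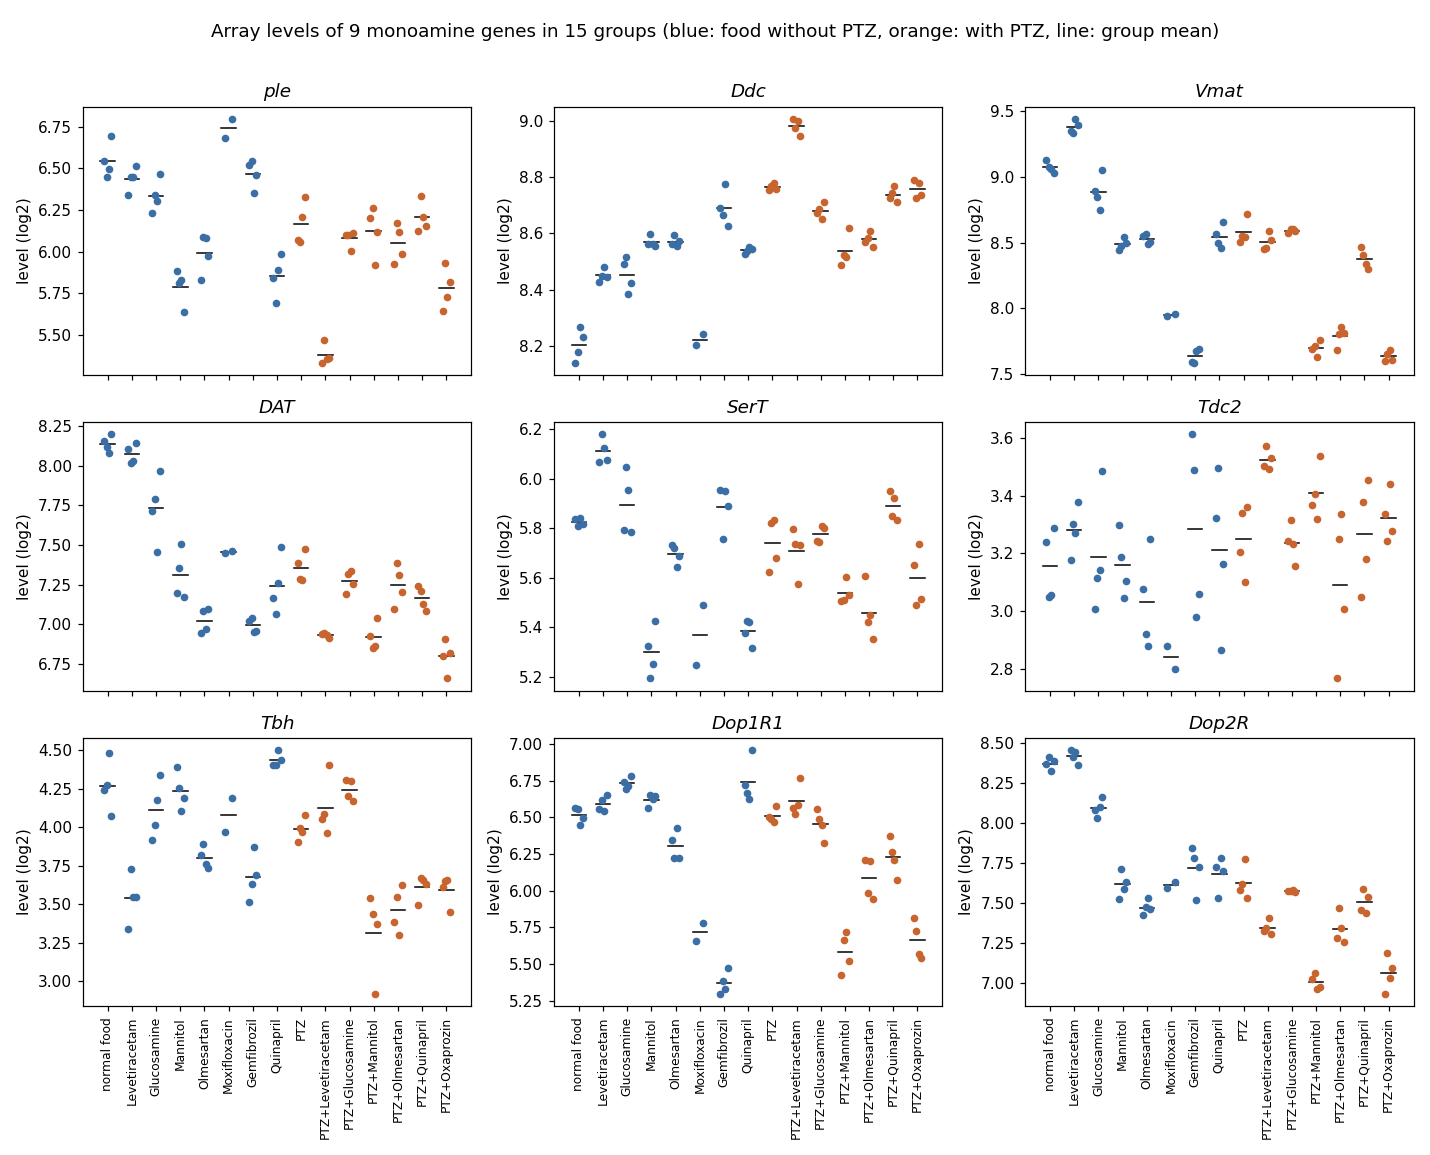
Log2 level of 9 monoamine genes on each array (points) in 15 groups on the x axis, with the group mean as a line and food without PTZ in blue, with PTZ in orange. DAT and Dop2R have their 2 highest groups in normal food and Levetiracetam, and Ddc has its lowest in normal food and Moxifloxacin.

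Of all pairs among the 15 groups, 85 differed in Vmat, 84 in Ddc, 79 in ple, 78 in Dop2R, 77 in Dop1R1, 74 in DAT, 72 in SerT, 66 in Tbh and 20 in Tdc2. The share over all probe sets was 39.5% of pairs. Neighbours in the order of levels mostly did not differ beyond their spread: of 14 neighbouring pairs, 9 for Vmat, 10 for Ddc, 11 for Dop2R, 12 for DAT and Dop1R1, 13 for ple and SerT and 14 for Tbh and Tdc2 missed the threshold. The orders below are therefore of groups far apart, not of each step.

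How the genes differed with PTZ and no other compound was read from PTZ against normal food. Of the 9 genes, 1 rose (Ddc) and 5 fell (ple, Vmat, DAT, Tbh and Dop2R), while over all probe sets 23.9% were called higher and 26.4% lower. The median difference of the 9 genes was -0.28, against -0.018 over all probe sets. SerT, Tdc2 and Dop1R1 missed the threshold, with differences of -0.08 ± 0.061, 0.09 ± 0.117 and -0.01 ± 0.070. Among the 11 pan-neuronal markers 10 fell and 1 rose, with a median of -0.53, and all 12 male reproductive tract markers fell.

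The same question can be put with 6 pairs of foods, each with and without PTZ: no drug, Levetiracetam, Mannitol, Glucosamine, Quinapril and Olmesartan. Taken as 6 differences of group means, Vmat was the only one of the 9 genes called, with -0.56 ± 0.105 and limma's adjusted p = 0.0374 (1.77% of all probe sets were called lower in this test and 1.18% higher). Dop2R came next with -0.55 ± 0.125 and an adjusted p of 0.0654 from the same limma fit. The other 7 had limma adjusted p-values of 0.215 to 0.964. The call for Vmat was lost when any 1 of the 6 pairs was left out, with limma adjusted p-values between 0.0508 and 0.0991 and differences between -0.50 and -0.64.

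**Figure D2:**
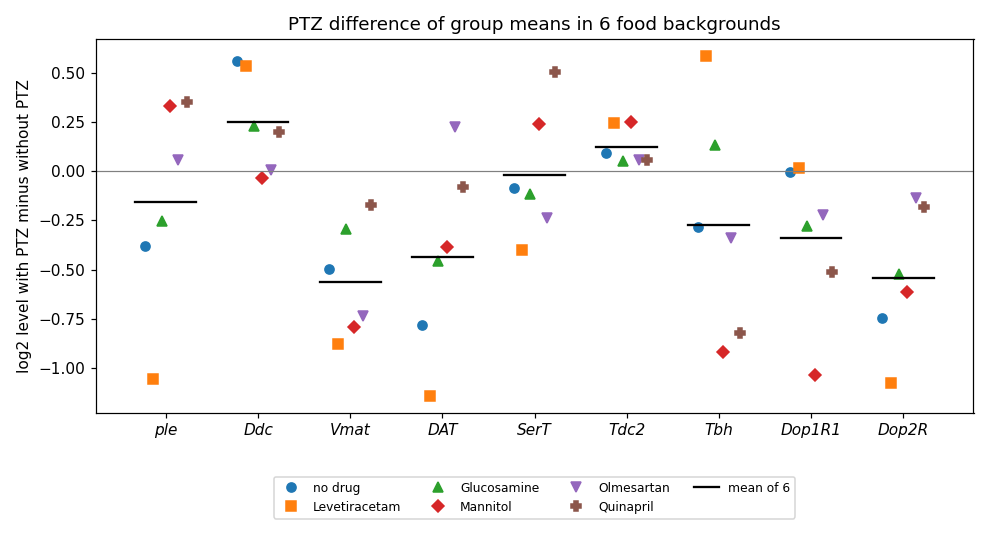
Difference of group means with PTZ minus without PTZ (log2, y axis) for 9 genes (x axis) in 6 food backgrounds (symbols), with the mean of 6 as a black line. Vmat and Dop2R lie below 0 and Tdc2 lies above 0 in all 6 backgrounds, whereas the other genes lie on both sides of 0.

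Starting with synthesis, ple encodes tyrosine hydroxylase, the rate-limiting enzyme of dopamine synthesis, which also serves cuticle hardening and pigmentation in the epidermis. Its level was 6.54, 6.45, 6.49 and 6.69 on the normal food arrays and 6.07, 6.06, 6.21 and 6.33 on the PTZ arrays. The PTZ arrays were all lower and the groups did not overlap. The difference was -0.38 ± 0.074, or 1.30-fold lower (limma adjusted p = 1.76e-05).

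The direction for ple depended on the food that PTZ was added to. On Levetiracetam the levels were 6.34, 6.45, 6.45 and 6.51 without PTZ and 5.33, 5.47, 5.36 and 5.36 with it, so that the combination was far below, at 2.08-fold lower (-1.06 ± 0.074, limma adjusted p = 1.14e-17). On Mannitol they were 5.88, 5.81, 5.83 and 5.64 without PTZ and 6.20, 6.26, 5.92 and 6.12 with it. There ple rose, by 0.33 ± 0.074 (limma adjusted p = 0.000155), and on Quinapril it also rose, by 0.35 ± 0.074 (limma adjusted p = 8.73e-05). It fell on Glucosamine, and the change on Olmesartan, 0.06 ± 0.074, missed the threshold.

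Without PTZ, ple was highest in Moxifloxacin, at 6.68 and 6.80, a level that did not differ from normal food (limma adjusted p = 0.086). It was lower than in normal food in 4 of 7 single compounds, with differences of -0.75 in Mannitol, -0.69 in Quinapril, -0.55 in Olmesartan and -0.21 in Glucosamine, each ± 0.074. Over the 15 groups the lowest level was in PTZ+Levetiracetam, at 5.38 ± 0.061, below the next group, PTZ+Oxaprozin, at 5.78 ± 0.123, by 0.40 (limma adjusted p = 1.51e-05). Those 2 groups also had the highest 5′ minus 3′ control signal, -4.14 and -4.73. Across the 15 group means ple and that signal had r = -0.88, and -0.82 without the 2 groups farthest from the median signal. Between arrays of the same group the slope of ple on the signal was -0.13, against -0.54 between group means.

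Ddc, dopa decarboxylase, moved the other way. It read 8.14, 8.18, 8.27 and 8.23 on normal food and 8.75, 8.77, 8.78 and 8.76 on PTZ. Every PTZ array was above every normal food array, and the rise was 0.56 ± 0.032 or 1.48-fold (limma adjusted p = 4.73e-21). PTZ also went with a rise of 0.53 on Levetiracetam, 0.23 on Glucosamine and 0.20 on Quinapril, while on Mannitol and Olmesartan the differences were -0.03 ± 0.032 and 0.01 ± 0.032 and missed the threshold. The mean over the 6 pairs was 0.25 ± 0.095 (limma adjusted p = 0.215).

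Normal food was the lowest of the 15 groups for Ddc, at 8.20 ± 0.056, and did not differ from Moxifloxacin, at 8.22 ± 0.027 (limma adjusted p = 0.766). The other 6 single compounds all raised it over normal food, from 0.25 in Levetiracetam and Glucosamine to 0.49 in Gemfibrozil. The highest group was PTZ+Levetiracetam, at 9.01, 8.98, 8.9995 and 8.95, above PTZ alone by 0.22 ± 0.032 (limma adjusted p = 8.76e-08). With the 5′ minus 3′ signal as a covariate it was 0.20 and missed the threshold (limma adjusted p = 0.0762). It was the one rise among the 54 comparisons of these genes between a combination and PTZ.

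Across the 15 group means ple and Ddc ran against each other, with r = -0.74 and a rank correlation of -0.56. Without the 2 groups farthest from the median of Ddc the r was -0.54. The points share the arrays' processing, and both genes also followed other measures: photoreceptor markers with r = -0.87 for ple and 0.80 for Ddc, and male reproductive tract markers with 0.74 for ple and -0.72 for Ddc. The last of these was -0.29 in the 13 groups left after the 2 farthest were taken out.

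**Figure D3:**
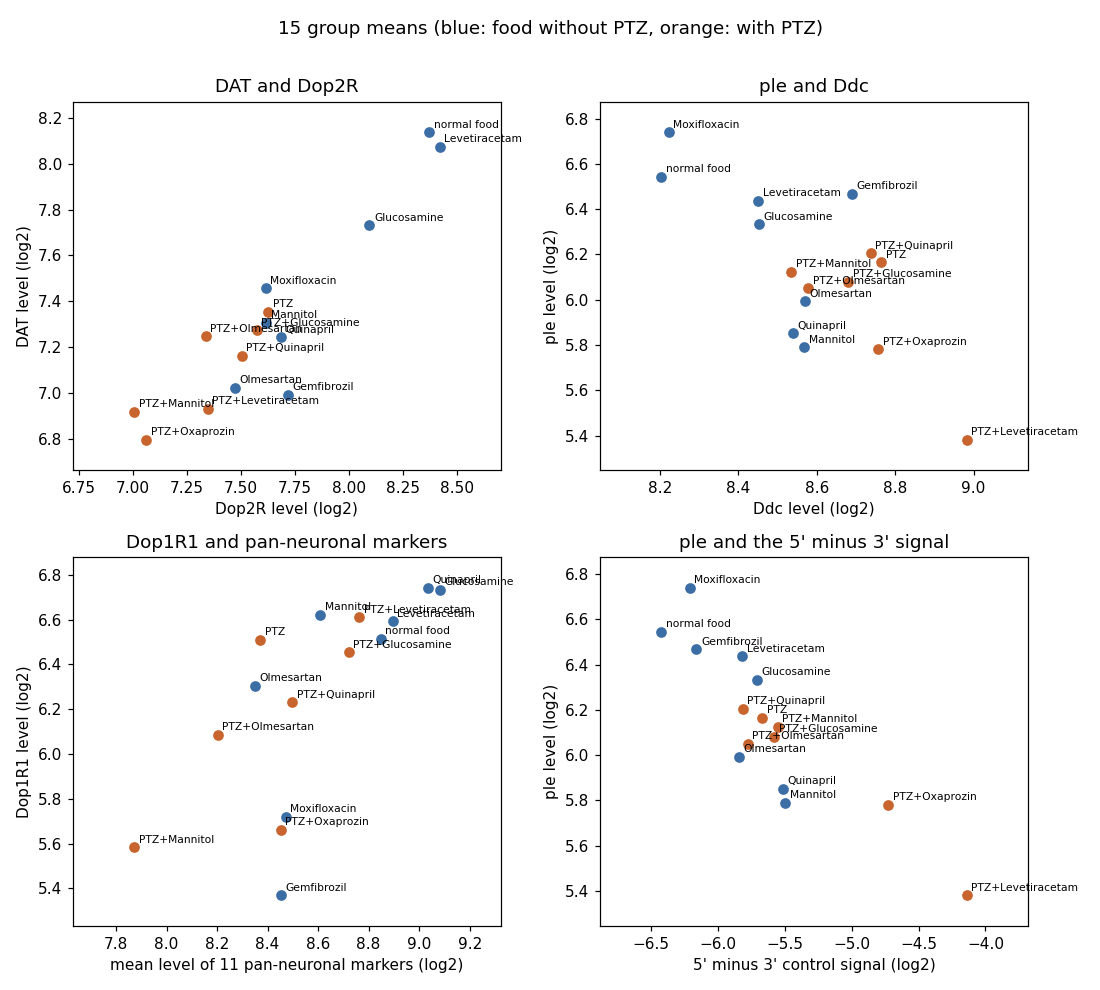
Group means (log2) of 15 groups for DAT against Dop2R, ple against Ddc, Dop1R1 against the mean of 11 pan-neuronal markers, and ple against the 5′ minus 3′ control signal, with food without PTZ in blue and with PTZ in orange. PTZ+Levetiracetam lies at the end of both panels of ple, and normal food and Levetiracetam at the upper end of DAT and Dop2R.

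Of 5 genes listed for the pterin cofactor of tyrosine hydroxylase, 1 fell and 3 rose with PTZ on normal food, and pr missed the threshold (0.03 ± 0.040, limma adjusted p = 0.609). Punch (Pu), which makes the first step towards tetrahydrobiopterin, fell from 10.71 ± 0.020 to 9.88 ± 0.081, a difference of -0.83 ± 0.060 (limma adjusted p = 5.24e-17). Pcd and Dhpr, enzymes that recycle that cofactor, rose by 1.09 ± 0.040 and 0.86 ± 0.056, and Sptr, which completes its synthesis, rose by 0.31 ± 0.065. Over the 15 group means Pu followed ple with r = 0.80 and ran against Ddc with r = -0.87.

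Tdc2, the neuronal tyrosine decarboxylase that makes tyramine, was near the lower end of the scale, with a mean level of 3.23 at the percentile 42.8 of all probe sets. It read 3.24, 3.05, 3.05 and 3.29 on normal food and 3.20, 3.34, 3.10 and 3.36 on PTZ. The groups overlapped, and no comparison with normal food, with PTZ, or of PTZ within a drug was called for Tdc2. Its highest group, PTZ+Levetiracetam, at 3.50, 3.57, 3.49 and 3.53, lay above all PTZ arrays but missed the threshold (0.27 ± 0.117, limma adjusted p = 0.0598).

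Tbh, the hydroxylase that turns tyramine into octopamine, was also dim, with a mean of 3.89. On normal food it read 4.24, 4.28, 4.48 and 4.07, and on PTZ 3.90, 4.00, 3.97 and 4.08. A single PTZ array lay above the lowest normal food array, and the fall passed the threshold (-0.28 ± 0.10, limma adjusted p = 0.0158). It no longer did without 1 of the arrays, where it was -0.21 with a limma adjusted p of 0.0979, nor after a second quantile normalization (-0.19, limma adjusted p = 0.126).

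Larger differences in Tbh lay elsewhere. Levetiracetam alone lowered it to 3.34, 3.73, 3.55 and 3.55, all below normal food (-0.73 ± 0.10, limma adjusted p = 3.87e-08), and adding PTZ to Levetiracetam went with a rise of 0.59 ± 0.10. Quinapril alone had the highest level of the 15 groups, 4.40, 4.40, 4.50 and 4.44, which did not differ from normal food (limma adjusted p = 0.172). PTZ+Quinapril had 3.50, 3.67, 3.66 and 3.63, so that PTZ went with a fall on Quinapril (-0.82 ± 0.10, limma adjusted p = 1.57e-09). Tbh also fell with PTZ on Mannitol (-0.92 ± 0.10), where PTZ+Mannitol read 3.54, 3.44, 2.92 and 3.37.

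Turning to transport, Vmat carries dopamine, serotonin, octopamine and histamine into vesicles and has splice forms that differ between neurons and glia. On normal food it read 9.13, 9.08, 9.06 and 9.03, and on PTZ 8.51, 8.55, 8.54 and 8.72. The groups did not overlap, and the fall was 1.41-fold (-0.50 ± 0.049, limma adjusted p = 1.68e-12). By the probe set used, Vmat was the one gene of the 9 that fell with PTZ in each of the 6 backgrounds, as 1.80% of all probe sets did. Another bright probe set of Vmat, described below, rose with PTZ on Mannitol and Quinapril.

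The falls of Vmat with PTZ differed in size. On Levetiracetam the level went from 9.35, 9.33, 9.44 and 9.40 to 8.45, 8.46, 8.59 and 8.52 (-0.88 ± 0.049), and on Mannitol from 8.44, 8.47, 8.54 and 8.50 to 7.69, 7.71, 7.63 and 7.76 (-0.79 ± 0.049). Neither pair of groups overlapped. On Olmesartan the difference was -0.74 ± 0.049, on Glucosamine -0.30 ± 0.049 and on Quinapril -0.17 ± 0.049, where the arrays of the groups overlapped (8.57, 8.50, 8.46 and 8.65 without PTZ, 8.47, 8.41, 8.34 and 8.30 with it). All 5 drug backgrounds differed from the PTZ change on normal food in limma's test of the difference.

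By the probe set used, Gemfibrozil had the lowest level of Vmat among the single compounds. It read 7.59, 7.58, 7.67 and 7.69, the largest fall from normal food among the 7 compounds (-1.44 ± 0.049, 2.71-fold, limma adjusted p = 1.09e-29). Moxifloxacin read 7.94 and 7.95, a difference of -1.13 ± 0.060. Levetiracetam was the one compound where that probe set rose, by 0.31 ± 0.049 (limma adjusted p = 9.09e-07). Other bright probe sets of Vmat, described below, ranked the compounds differently. For 1636275_a_at the fall was -0.85 ± 0.052 in Gemfibrozil and -0.88 ± 0.064 in Moxifloxacin. For 1628739_at it was -0.19 ± 0.051 in Gemfibrozil, less than in Quinapril (-0.44 ± 0.051), Moxifloxacin (-0.42 ± 0.062) and Mannitol (-0.31 ± 0.051).

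Against PTZ alone, Vmat was lower in PTZ+Oxaprozin (7.59, 7.65, 7.69 and 7.60), PTZ+Mannitol, PTZ+Olmesartan (7.68, 7.80, 7.86 and 7.81) and PTZ+Quinapril, with differences of -0.95, -0.88, -0.79 and -0.20, each ± 0.049. PTZ+Levetiracetam and PTZ+Glucosamine missed the threshold, with -0.07 and 0.01. The 4 groups with the lowest Vmat (Gemfibrozil, PTZ+Oxaprozin, PTZ+Mannitol and PTZ+Olmesartan) thus included both foods with and foods without PTZ.

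Vmat has 4 probe sets, and they did not all give the same picture. The one used, 1637393_at, had r = 0.90 over the 15 group means with 1636275_a_at, which fell with PTZ on normal food (-0.47 ± 0.052) and was called over the 6 pairs (-0.48, limma adjusted p = 0.00732). Of 19 comparisons of 2 groups, these probe sets were called in the same direction in 14, the 6 of PTZ with and without a drug among them, in opposite directions in 1, and with a call for a single one of them in 4. On Glucosamine, 1636275_a_at rose over normal food (0.30 ± 0.052) where the probe set used fell (-0.19 ± 0.049). It was above PTZ in PTZ+Levetiracetam (0.47 ± 0.052) and PTZ+Glucosamine (0.17 ± 0.052), where the probe set used missed the threshold, and it missed the threshold itself in Quinapril against normal food and PTZ+Quinapril against PTZ.

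Another, 1628739_at, was of similar brightness, at a mean of 8.18, but had r = 0.47 with the one used. It fell on normal food (-0.13 ± 0.051, limma adjusted p = 0.0355) and showed -0.003 over the 6 pairs (limma adjusted p = 0.993). With PTZ it also fell on Levetiracetam (-0.24 ± 0.051) and Olmesartan (-0.32 ± 0.051). It rose on Mannitol (0.42 ± 0.051, limma adjusted p = 6.21e-10) and Quinapril (0.29 ± 0.051, limma adjusted p = 5.57e-06), and missed the threshold on Glucosamine (-0.04 ± 0.051).

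Of the 19 comparisons, 1628739_at was called in the same direction as the probe set used in 9, in the opposite direction in 3 and not called where the other was in 5. PTZ+Mannitol was its highest group, and the same food was among the lowest for the probe set used. The probe set 1632856_s_at was dim, at a mean of 2.83. Which transcript of the gene each probe set reads is not given in the sources used here.

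**Figure D4:**
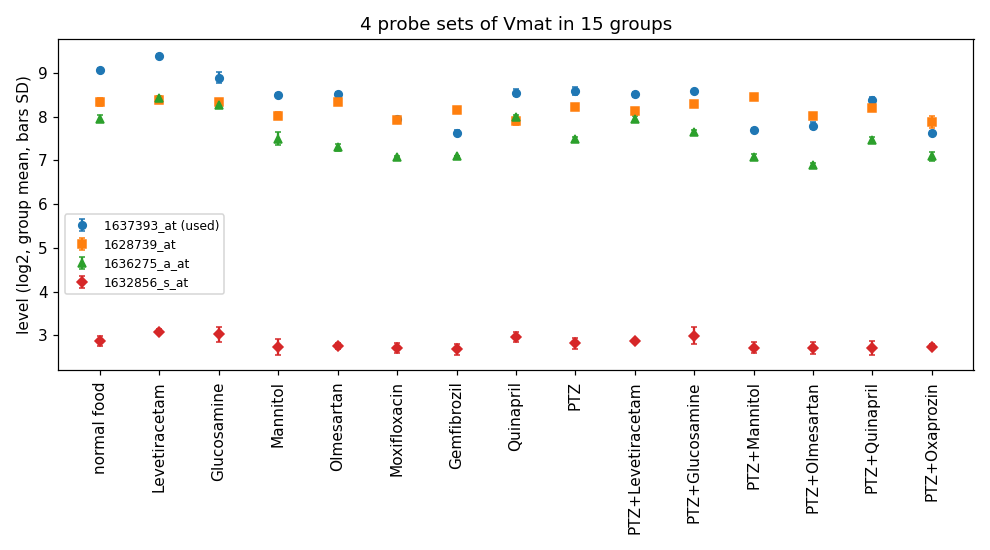
Group mean (log2, bars SD over arrays) of the 4 probe sets of Vmat in 15 groups. The probe set used and 1636275_a_at fall together in Gemfibrozil and PTZ+Oxaprozin, 1628739_at moves by at most 0.57 between groups, and 1632856_s_at lies at the lower end of the scale.

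DAT, the transporter that takes dopamine back into the releasing cell, fell most with PTZ on normal food among the 9 genes. It read 8.16, 8.12, 8.08 and 8.20 on normal food and 7.38, 7.29, 7.28 and 7.47 on PTZ. No arrays overlapped, and the fall was 1.72-fold (-0.78 ± 0.076, limma adjusted p = 1.13e-12). On Levetiracetam PTZ took it from 8.10, 8.02, 8.03 and 8.15 to 6.94, 6.95, 6.93 and 6.91, a fall of 2.21-fold (-1.14 ± 0.076).

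The other foods differed from each other in DAT. It fell against normal food in 6 of 7 single compounds, from -0.41 in Glucosamine to -1.11 in Olmesartan and -1.14 in Gemfibrozil, while Levetiracetam differed by -0.06 ± 0.076. On Olmesartan DAT read 6.94, 7.09, 6.97 and 7.09, and PTZ went with a rise there, to 7.10, 7.39, 7.31 and 7.20 (0.22 ± 0.076, limma adjusted p = 0.0204). That rise was lost without 1 of the arrays (0.18, limma adjusted p = 0.105). On Quinapril the PTZ difference of -0.08 ± 0.076 missed the threshold, and over the 6 pairs the mean was -0.44 ± 0.166 (limma adjusted p = 0.215).

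SerT, which clears serotonin, read 5.84, 5.81, 5.84 and 5.81 on normal food and 5.62, 5.82, 5.83 and 5.68 on PTZ. These groups overlapped and the difference missed the threshold. It passed as a fall after a second quantile normalization (-0.20, limma adjusted p = 0.00303) and with the 5′ minus 3′ signal as a covariate (-0.23, limma adjusted p = 0.0341), and as a rise relative to pan-neuronal markers (0.39, limma adjusted p = 3.93e-07). Its highest group was Levetiracetam (6.07, 6.18, 6.12 and 6.07), above normal food by 0.29 ± 0.061 (limma adjusted p = 0.000125), and its lowest was Mannitol (5.32, 5.19, 5.25 and 5.42), below normal food (-0.53 ± 0.061, limma adjusted p = 1.48e-10).

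PTZ within a drug went both ways for SerT. On Quinapril it rose from 5.38, 5.43, 5.42 and 5.32 to 5.95, 5.85, 5.92 and 5.83, without overlap (0.50 ± 0.061, limma adjusted p = 1.3e-09), and on Mannitol it rose by 0.24 ± 0.061. On Levetiracetam it fell (-0.40 ± 0.061) and on Olmesartan likewise (-0.24 ± 0.061).

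Of the receptors, Dop1R1 is the D1-like receptor that raises cyclic AMP and is known for its part in learning and arousal. It read 6.56, 6.55, 6.45 and 6.50 on normal food and 6.50, 6.49, 6.47 and 6.58 on PTZ, which overlapped. With Mannitol the picture differed. There the level was 6.56, 6.65, 6.63 and 6.65 without PTZ and 5.43, 5.67, 5.72 and 5.52 with it, a fall of 2.05-fold (-1.04 ± 0.070, limma adjusted p = 5.01e-18), and this change differed from that on normal food (limma adjusted p = 1.09e-12).

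Dop1R1 also fell with PTZ on Quinapril (-0.51 ± 0.070), Glucosamine (-0.28 ± 0.070) and Olmesartan (-0.22 ± 0.070). Among single compounds Gemfibrozil had the lowest level of all 15 groups, 5.30, 5.39, 5.33 and 5.47 (-1.15 ± 0.070 against normal food, limma adjusted p = 1.32e-19), and Moxifloxacin read 5.66 and 5.78 (-0.80 ± 0.086). Glucosamine and Quinapril raised it, by 0.22 and 0.23. Combinations with Mannitol and Oxaprozin were lower than PTZ alone by -0.93 and -0.85, each ± 0.070.

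Dop2R, the D2-like receptor that lowers cyclic AMP and acts in part as an autoreceptor on dopamine neurons, read 8.37, 8.41, 8.32 and 8.39 on normal food and 7.58, 7.62, 7.77 and 7.53 on PTZ. The groups did not overlap, with a fall of 1.68-fold (-0.75 ± 0.056, limma adjusted p = 2.09e-16). Levetiracetam alone read 8.46, 8.41, 8.45 and 8.37, overlapping normal food, and PTZ+Levetiracetam 7.33, 7.34, 7.41 and 7.30. That fall was 2.11-fold (-1.08 ± 0.056, limma adjusted p = 1.97e-22).

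Dop2R fell with PTZ in 5 of 6 backgrounds and lay below in the other, Olmesartan (-0.14 ± 0.056, limma adjusted p = 0.0656). As with DAT, 6 of 7 single compounds lowered it against normal food, from -0.28 in Glucosamine to -0.90 in Olmesartan, and Levetiracetam did not. The lowest levels were in PTZ+Mannitol (7.02, 7.06, 6.96 and 6.97) and PTZ+Oxaprozin (6.93, 7.18, 7.03 and 7.09), below PTZ alone by -0.62 and -0.57, each ± 0.056. A second probe set, 1637270_at, was dim, with a mean of 2.70, and had r = 0.13 with the one used. Of 19 comparisons, the 2 probe sets were called in the same direction in 0 and in opposite directions in 3. The one used was called alone in 12 and the dim one alone in 1.

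Across the 7 single compounds, which share the same 4 normal food arrays, the 9 genes gave 10 rises and 31 falls in 63 comparisons. The share over all probe sets was 22.9% higher and 21.5% lower. DAT, Dop2R and, by the probe set used, Vmat fell in 6 compounds each, and Ddc rose in 6. These repeats rest on the same normal food arrays, and how many of all probe sets were called in 6 compounds was not counted. Of the other bright probe sets of Vmat, 1636275_a_at rose on Glucosamine (0.30 ± 0.052) and 1628739_at missed the threshold on Olmesartan (-0.01 ± 0.051). Both fell in Mannitol, Moxifloxacin and Gemfibrozil. Levetiracetam had 3 rises (Ddc, Vmat and SerT) and 1 fall (Tbh), counts near the share over all probe sets, 21.0% higher and 17.3% lower.

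Falls outnumbered rises in each of the other 6 compounds. Olmesartan had 1 rise and 6 falls among the 9 genes (25.7% and 24.4% over all probe sets), and Gemfibrozil 1 and 5 (25.3% and 20.8%). Mannitol had 1 rise and 5 falls (22.9% and 25.4%), and Quinapril 2 and 5 (25.1% and 24.0%). Moxifloxacin, with its 2 arrays, had 0 rises and 5 falls (17.6% and 19.9%), and Glucosamine 2 and 4 (22.4% and 18.9%). The median difference of the 9 genes was lowest in Gemfibrozil, at -0.59, where the pan-neuronal mean was 8.45 against 8.85 in normal food.

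**Figure D5:**
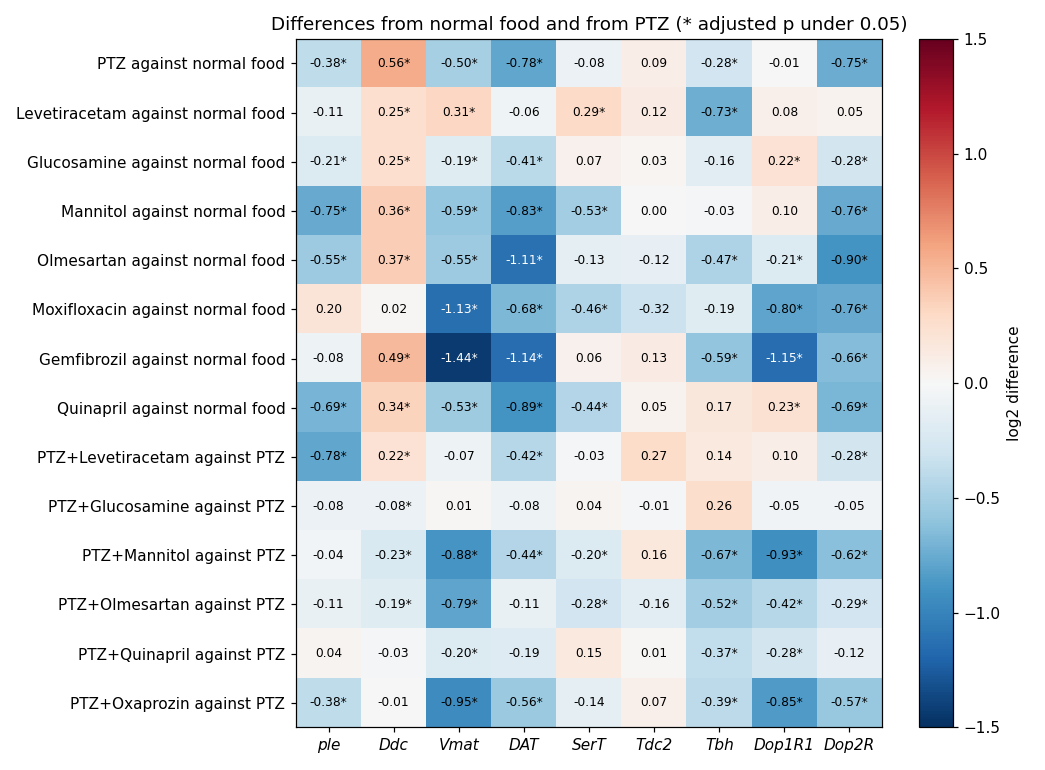
Log2 differences of 9 genes (columns) in 14 comparisons (lines), 8 against normal food and 6 against PTZ, with red for higher and blue for lower and an asterisk where limma's adjusted p is under 0.05. Ddc is the only column with more called rises than falls in the comparisons with normal food, and PTZ+Glucosamine differs from PTZ in Ddc alone.

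Across the 6 combinations, which share the 4 PTZ arrays, the 9 genes gave 1 rise and 26 falls in 54 comparisons, where 14.7% of all probe sets were higher and 15.9% lower. PTZ+Mannitol had 0 rises and 7 falls (14.7% and 18.8% over all probe sets), PTZ+Olmesartan 0 and 6 (15.5% and 14.9%) and PTZ+Oxaprozin 0 and 6 (17.8% and 17.8%). PTZ+Quinapril had 0 and 3 (9.82% and 11.6%), and PTZ+Levetiracetam 1 and 3 (18.4% and 20.0%). PTZ+Glucosamine stayed closest to PTZ, with 0 rises and 1 fall (11.7% and 12.4%), that of Ddc (-0.08 ± 0.032, limma adjusted p = 0.0451). That call was lost in a fit of only the groups compared (limma adjusted p = 0.1) and with a variance trend (limma adjusted p = 0.0595). The pan-neuronal mean was 7.87 in PTZ+Mannitol, 8.20 in PTZ+Olmesartan, 8.45 in PTZ+Oxaprozin and 8.72 in PTZ+Glucosamine, against 8.37 in PTZ.

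Within the 5 drug backgrounds PTZ went with 9 rises and 23 falls in 45 comparisons, where 18.5% of all probe sets rose and 20.2% fell. There were 2 rises and 5 falls on Levetiracetam (22.7% and 27.9%), 1 and 5 on Glucosamine (15.2% and 15.9%), 2 and 5 on Mannitol (21.1% and 22.0%), 1 and 4 on Olmesartan (13.3% and 15.2%) and 3 and 4 on Quinapril (20.3% and 20.2%). Both directions occurred among the 6 PTZ comparisons for ple, DAT, SerT and Tbh. The change with PTZ on a drug differed from that on normal food in 32 of 45 tests, against 41.0% of tests over all probe sets. DAT and Vmat differed in all 5 drugs, ple, Ddc, Tbh and Dop2R in 4, SerT and Dop1R1 in 3 and Tdc2 in 0. These 5 tests share the normal food and PTZ arrays.

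The direction of several PTZ differences depended on what they were measured against. Set against the mean of the 7 single compounds in place of normal food, PTZ gave 3 rises and 1 fall among the 9 genes, with Vmat at 0.09 ± 0.037 and Dop1R1 at 0.21 ± 0.053, while DAT, at -0.05 ± 0.058, and ple, at -0.07 ± 0.056, missed the threshold. Relative to the mean of the 11 pan-neuronal markers on each array, an alternative chosen after seeing the data, 4 rose and 2 fell. There SerT was at 0.39 ± 0.064, Dop1R1 at 0.47 ± 0.073 and Vmat at -0.02 ± 0.050. That scaling moved the median of all probe sets by 0.46.

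Among the genes themselves, DAT and Dop2R ran most closely together over the 15 group means, with r = 0.92, and 0.81 without the 2 groups farthest from the median of Dop2R. By the probe set used, Vmat followed Dop1R1 with r = 0.85, Dop2R with 0.80 and DAT with 0.77. Without the 2 groups farthest from the median of the gene it was set against, these were 0.79, 0.62 and 0.57. The points share array processing and the markers of neurons, which Vmat, Dop1R1, Dop2R and Tbh followed with r = 0.72, 0.71, 0.71 and 0.69. Without the 2 groups farthest from the median of those markers, these were 0.66, 0.59, 0.57 and 0.59. These are descriptions over 15 groups and carry no test.

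The genes most like each member over the 15 group means were looked up among 11973 others. Nearest to Dop2R was Rbfox1 with r = 0.99, to DAT Gug with 0.98, to Vmat Smr with 0.98 and to ple Uxs with 0.97. For Ddc it was ecd with 0.95, for SerT CG6867 with 0.94, for Tdc2 Strn-Mlck with 0.94 and for Tbh ctp with 0.83. Nearest to Dop1R1 was another receptor of the pathway, DopEcR, which binds dopamine and ecdysone, with r = 0.94, and the pan-neuronal marker elav was also among the nearest, with 0.92.

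The other near genes were CG18596 and CG6230 for ple, hfp and betaCOP for Ddc, mura and Dlic for Vmat, and Kif3C and Nin for DAT. They were SmydA-9 and aru for SerT, Asph and Ankle2 for Tdc2, CanA-14F and dysc for Tbh, ftz-f1 for Dop1R1, and CG14234 and mam for Dop2R. All of these had r between 0.80 and 0.98.

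Other genes of monoamine pathways gave a wider view. Of 32 listed, 27 had a probe set; with PTZ on normal food 8 rose, 8 fell and 11 missed the threshold, with a median of 0.04. Over all probe sets 23.9% were higher and 26.4% lower, so the counts over the 27 genes lay near that share. Of the 7 genes listed for dopamine synthesis and receptors 5 rose and 1 fell, and of the 8 of tyramine and octopamine 1 rose and 4 fell. The greatest rise was of ebony (e), which joins dopamine and histamine to beta-alanine, from 5.18 ± 0.146 to 6.29 ± 0.017 (1.11 ± 0.066, limma adjusted p = 3.37e-20).

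Receptors of octopamine and tyramine were among the falls. Octbeta1R went from 7.59 ± 0.053 to 6.79 ± 0.052 (-0.79 ± 0.066), and Oct-TyrR, a receptor for tyramine and octopamine, from 6.40 ± 0.061 to 5.82 ± 0.115 (-0.58 ± 0.085). Tdc1, the decarboxylase outside the nervous system, rose by 0.44 ± 0.046.

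The serotonin receptor 5-HT7 fell on normal food (-0.44 ± 0.082, limma adjusted p = 6.7e-06). It was also the only one of the 27 called over the 6 pairs of foods (-0.49 ± 0.087, limma adjusted p = 0.0319). Its lowest groups were PTZ+Oxaprozin at 3.61 ± 0.166 and PTZ+Mannitol at 3.70 ± 0.094, close to the lower end of the scale.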

How the data were processed

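RNA of 58 head samples, labelled from 250 ng, was hybridised to 1-colour Affymetrix arrays. The deposited values are on a log2 scale and come from RMA, a method that corrects background, makes the arrays' distributions equal and combines the probes of a set, per the submitters' processing notes, which also list limma without a version or setting. A shift common to most RNAs is thereby lost, and dim probe sets show too small differences. Array medians ran from 3.7 to 3.87. Of 18952 probe sets, 183 controls were left out, and 0 columns belonged to other samples. Of the rest, 13647 carry 1 gene symbol in the platform's annotation, 402 several and 4720 none. No p-value or fold change of the authors was used.

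Groups were taken from the labels. Group means were fitted with limma 3.58.1 under R 4.3.3 to all arrays, which left 43 residual and 3.88 prior degrees of freedom, and p-values were adjusted within each comparison over 18769 probe sets. PTZ was also tested over 6 differences of group means, with 2.71 prior degrees of freedom. The 9 genes are all reported, other pathway genes by counts and by name for the 8 greatest called differences and those called over pairs, and 3 pattern neighbours per gene. Members and lists were chosen with earlier results of these data known.

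Replicate numbers did not pair arrays: same-numbered arrays had correlations of deviations from -0.127 to 0.138, and in 0 of 19 comparisons was every one over 0.1. All 58 arrays correlated best with an array of their own group, and 0 pairs held identical values. Alternatives were a second quantile normalization, a variance trend with robust prior, dropping the 40% dimmest probe sets, averaging a gene's probe sets, other reference groups, only the groups compared, the 5′ minus 3′ signal as a covariate, the bioB control level (boundary -3, 20 arrays above) or the replicate number as a block, each array or pair left out, and arrays as units. Levels relative to pan-neuronal markers were added after seeing the data. The code was tested on simulated data. Plots used matplotlib 3.10.9 in Python 3.11.15.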

Additional observations from a re-analysis of the deposited data

Results flagged for a closer look

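An array standing apart from the other 3 of its group was found in 2 of 126 sets of 4 arrays, where chance gives about 1 in 20. The level of ple on 1 PTZ+Glucosamine array was 6.003, against 6.10 to 6.11 on the others, and the level of Ddc on 1 Mannitol array was 8.60, against 8.56 on the others. Both groups were very tight.

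The difference with PTZ on a drug minus the difference with PTZ on normal food passed limma's threshold in 32 of 45 tests, against 41.0% of tests over all probe sets. The values below are these differences of log2 differences. For ple they were -0.68 with Levetiracetam, 0.71 with Mannitol, 0.44 with Olmesartan and 0.73 with Quinapril. For Ddc they were -0.33 with Glucosamine, -0.59 with Mannitol, -0.55 with Olmesartan and -0.36 with Quinapril, so that the rise with PTZ on normal food was larger than on each of these.

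Vmat had -0.38 with Levetiracetam, 0.20 with Glucosamine, -0.30 with Mannitol, -0.24 with Olmesartan and 0.33 with Quinapril. DAT had -0.36 with Levetiracetam, 0.32 with Glucosamine, 0.39 with Mannitol, 1.01 with Olmesartan and 0.70 with Quinapril. SerT had -0.32 with Levetiracetam, 0.32 with Mannitol and 0.59 with Quinapril.

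Tbh had 0.87 with Levetiracetam, 0.41 with Glucosamine, -0.64 with Mannitol and -0.54 with Quinapril. Dop1R1 had -0.27 with Glucosamine, -1.03 with Mannitol and -0.51 with Quinapril. Dop2R had -0.33 with Levetiracetam, 0.23 with Glucosamine, 0.61 with Olmesartan and 0.57 with Quinapril. The level on the drug without PTZ is subtracted in each of these values, so a lower one makes the value larger by construction. With DAT and Dop2R, each drug with a positive value had both genes below normal food without PTZ. Dop2R was also below normal food on Mannitol (-0.76 ± 0.056), where its value missed the threshold. All 5 tests use the same normal food and PTZ arrays, so a deviation in either shifts them together.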

How the results depend on the processing

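Of 171 differences of a gene between 2 groups, the replicate number as a block changed 0 calls: PTZ against normal food kept 1 rise and 5 falls, the single compounds 10 and 31, the combinations 1 and 26, and PTZ within drugs 9 and 23. The variance trend lost 1 of these calls and gained 2. With the 5′ minus 3′ signal as a covariate 15 calls were lost and 5 gained. Fits of only the groups compared lost 7 and gained 6, and a second quantile normalization lost 6 and gained 5. Other reference groups turned the sign of 31 of 126 values, and a further 9 calls were lost and 17 gained. Levels relative to pan-neuronal markers turned the sign of 31 of 171, with a further 17 calls lost and 26 gained. The cause was not tested. For PTZ against normal food the rises were 4 and the falls 2 relative to pan-neuronal markers, and 3 and 1 against the mean of the single compounds. Single compounds had 16 rises relative to pan-neuronal markers and 21 against the mean of the other compounds. Combinations had 2 rises after a second quantile normalization, 4 without the 40% dimmest probe sets, 2 when a gene's probe sets were averaged, 4 relative to pan-neuronal markers, 3 in fits of only the groups compared, 19 against the mean of the other combinations, and 1 to 2 with 1 array left out. PTZ within drugs had 23 rises and 9 falls relative to pan-neuronal markers.

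Over the pairs, rises were 3 relative to pan-neuronal markers and 2 with arrays as units. Falls over the pairs were 0 with the variance trend, with the 5′ minus 3′ covariate, relative to pan-neuronal markers and without any 1 pair, 2 without the dimmest probe sets and 6 with arrays as units. Relative to pan-neuronal markers, PTZ against normal food turned to 0.10 for ple, 0.39 for SerT, 0.20 for Tbh and 0.47 for Dop1R1, SerT over pairs to 0.38, and Ddc in PTZ+Levetiracetam against PTZ to -0.17. Against other groups as reference, PTZ turned to 0.091 for Vmat, 0.0025 for Tbh and 0.21 for Dop1R1, and Glucosamine to -0.053 for Ddc and 0.38 for DAT. With 1 array left out at a time, the 1350 refitted differences lost 18 calls and gained 6.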
